A study of Lithobates clamitans with 20 samples.

Results

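By group means on the log2 scale, 39 tadpole gut genes stood higher or lower in depleted than in colonized tadpoles at both temperatures. Those means differed little between the temperatures. The genes were chosen by the group means of the very read counts described here, among 8477 genes counted in the guts of 20 green frog (Lithobates clamitans) tadpoles. A gene was taken when it was counted in every library, when its mean level was below 1000 CPM (reads of a gene per 1000000 reads of the library's scaled size, which is its total count times the scaling factor described below), and when depleted minus colonized was at least 0.6 on the log2 CPM scale in the same direction at 22°C and at 32°C. In addition, 32°C minus 22°C had to be under 0.5 in size in both colonized and depleted tadpoles. Of the 8477 genes, 6487 were counted in all 20 libraries, 6364 of these had a mean below 1000 CPM, and 39 of these met the rest of the rule. In depleted tadpoles 22 of the 39 were higher and 17 were lower. The rule used both differences between depleted and colonized tadpoles, so those differences are described here and not tested.

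The tadpoles were raised from the embryos of 1 pair of wild-caught frogs. Colonized tadpoles lived in water with unmanipulated pond water and depleted tadpoles in water whose pond water had been autoclaved, which leaves a gut microbiome of lower diversity and not a germ-free gut. All were reared at 22°C, and the warm groups spent the last 24 h at 32°C. Each gut was divided, with its sections spread over the portions, and RNA of 1 portion, without sorting of cells, was sequenced with 1 library per tadpole and 5 tadpoles per group. Groups are named by the animal codes: C22 (cool colonized), C32 (warm colonized), D22 (cool depleted) and D32 (warm depleted), with C and D read as colonized and depleted. The treatment fields of the sample records give the same groups for 10 tadpoles and interchange C32 and D22 for the other 10. By those fields, C32 tadpoles were cool and depleted and D22 tadpoles warm and colonized. The 39 genes would then differ between warm and cool tadpoles in each colonization group, and not between colonized and depleted ones. Which record is right was not tested with these genes, and every statement on depletion below follows the animal codes.

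The gut lining of vertebrates lies in constant contact with microbes, and it takes up nutrients, secretes mucus and antimicrobial proteins and breaks down compounds from the diet. In mice and zebrafish, the presence of gut microbes is known to alter the expression of genes for innate defence, nutrient uptake and the breakdown of foreign compounds. The deposited table lists genes by identifiers of the American bullfrog genome (here without the prefix "gene-") and does not pair them with names. Functions of the 39 genes are therefore not given, and markers of gut cell types could not be checked. In RNA of gut tissue, fewer cells of a type and less RNA per cell cannot be told apart.

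Between 11102195 and 22922461 reads were counted per library. The median was 16533610 in C22, 21154306 in D22, 21918522 in C32 and 21707665 in D32, so by median the colonized libraries were the shallower ones at 22°C. The ranges overlapped there: C2201 had 19894322 reads and D2203 had 17232256. Scaling was by edgeR's TMM method, which sets a factor per library from the genes that change least. The median factor was 1.16 in C22, 0.708 in D22, 1.14 in C32 and 1.20 in D32. Thus the D22 libraries, whose factors ran from 0.682 to 1.03, were scaled unlike most of the others. With total counts in place of these factors, D22 minus C22 moved by a median of −0.43 over the 6364 genes, and the members changed as given further below. Which scaling is the better one here was not tested.

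Among the 22 higher members, the difference of mean log2 CPM between D22 and C22 ran from 0.63 to 1.61, with a median of 0.91. Between D32 and C32 it ran from 0.60 to 1.28, with a median of 0.88. Among the 17 lower members, the difference ran from −1.93 to −0.64 at 22°C (median −0.81) and from −2.22 to −0.60 at 32°C (median −0.72). The difference was the larger one at 22°C in 21 members and at 32°C in the other 18. The sign of 32°C minus 22°C was mixed: it was negative in 21 of the 39 in colonized tadpoles (median −0.06) and in 23 in depleted tadpoles (median −0.02). The rule held these differences under 0.5 in size, and the median standard error of a member's difference was 0.539. Nothing is therefore read from their signs. The mean level of the members ran from 1.35 to 610.3 CPM. Their median was 13.6 CPM, beside 13.9 CPM for all 6364 genes. A mean under 10 CPM was found for 15 members and a mean of at least 100 CPM for 6.

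**Figure D1:**
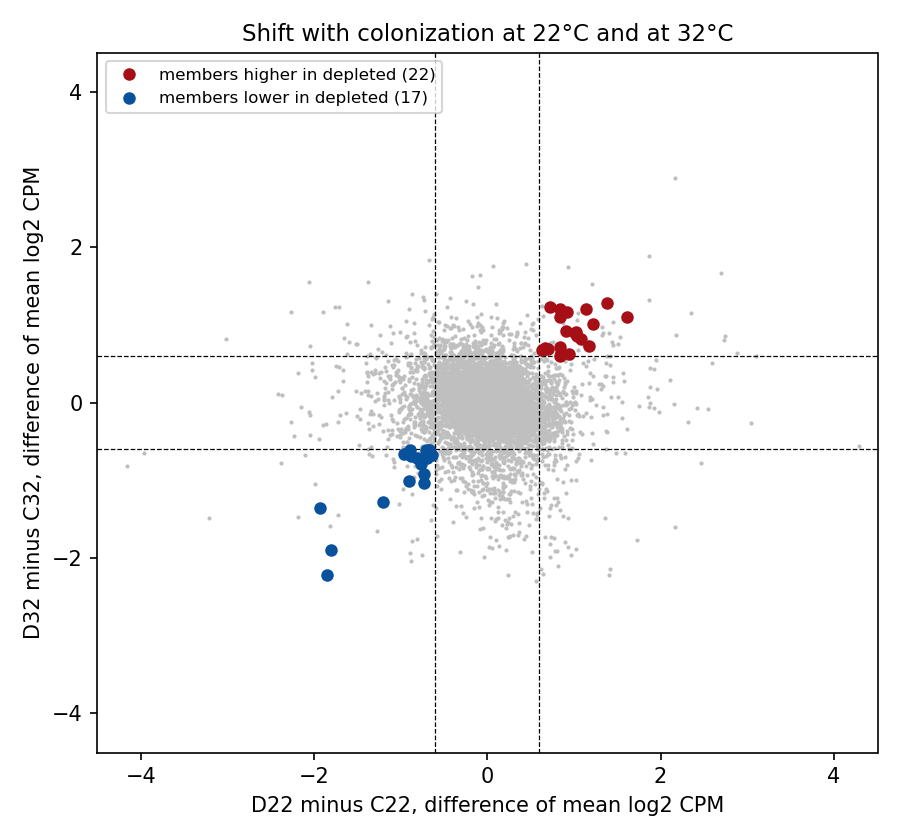
Difference of mean log2 CPM between depleted and colonized tadpoles at 22°C (x axis, D22 minus C22) and at 32°C (y axis, D32 minus C32). Grey points are the 6364 genes that could enter, red points the 22 higher and blue points the 17 lower members, and dashed lines mark 0.6 in either direction. Most genes past the lines at one temperature lie between them at the other.

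The leading lower members, ranked by the smaller of their differences at the 2 temperatures, were AB205_0071210 and AB205_0071200, which carry consecutive identifiers. AB205_0071210 had 18.5, 53.4, 24.4, 7.57 and 29.4 CPM in the 5 C22 tadpoles (26.6 ± 17.0, mean ± SD) and 5.02, 21.8, 1.36, 3.06 and 17.3 CPM in D22 (9.71 ± 9.22). In C32 it had 47.0, 26.1, 20.4, 8.92 and 124 CPM (45.2 ± 45.9), and in D32 15.5, 0.565, 33.5, 26.7 and 1.28 CPM (15.5 ± 14.8). The groups overlapped at both temperatures, and the depleted tadpoles fell into low ones (D2203, D2206, D3203, D3207 and, less so, D2201) and ones within the range of the colonized tadpoles. The difference of mean log2 CPM was −1.85 at 22°C and −2.22 at 32°C, with a standard error of 1.12 for each from the spread within the 4 groups. With group medians in place of means the differences became −2.26 and −0.75. Its highest level was 219 times its lowest.

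AB205_0071200 followed the same tadpoles at a higher level. It had 47.0, 121, 50.9, 24.8 and 38.8 CPM in C22 (56.4 ± 37.2) and 12.3, 45.9, 3.24, 7.11 and 38.8 CPM in D22 (21.5 ± 19.5). In C32 it had 95.4, 55.6, 34.8, 23.0 and 244 CPM (90.7 ± 90.3), and in D32 40.3, 3.03, 78.9, 50.3 and 2.86 CPM (35.1 ± 32.6). The lowest tadpoles were again D2203, D2206, D3203 and D3207, and the highest were C3210 and C2204. The differences were −1.81 and −1.89 (standard error 1.02). With group medians they became −1.93 and −0.46, and the second was then short of the 0.6 that the rule asked for.

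Of the higher members, AB205_0167140 and AB205_0078550 led. AB205_0167140 had 64.5, 13.8, 81.9, 37.5 and 36.6 CPM in C22 (46.9 ± 26.6) and 168, 110.1, 106, 148 and 41.6 CPM in D22 (115 ± 48.4). In C32 it had 275, 36.3, 15.4, 25.6 and 29.2 CPM (76.3 ± 111), and in D32 60.3, 6.88, 242, 449.98 and 218 CPM (195 ± 174). C3204 stood far above the other C32 tadpoles, and D3203, at 6.88 CPM, had the lowest level of all 20 tadpoles although it was depleted. The differences were 1.38 at 22°C and 1.28 at 32°C (standard error 0.994). With group medians in place of means they became 1.55 and 2.89.

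AB205_0078550 was a gene of low level with less spread than the genes described above. With a standard deviation within groups of 0.845 on the log2 scale, beside a median of 0.472 over all 6364 genes, this gene was not steady. It had 5.48, 2.53, 3.10, 4.19 and 1.46 CPM in C22 (3.35 ± 1.55), against 8.20, 3.21, 9.88, 16.2 and 3.60 CPM in D22 (8.23 ± 5.33). In C32 it had 2.03, 4.90, 6.46, 2.53 and 1.26 CPM (3.44 ± 2.17), and in D32 11.3, 7.60, 2.84, 6.89 and 8.83 CPM (7.49 ± 3.09). At each temperature some tadpoles crossed: D2202 and D2209 lay below C2201 and C2207 at 22°C, and D3205 lay below C3205 and C3207 at 32°C. The differences were 1.14 and 1.20 (standard error 0.534), and with group medians they became 1.37 and 1.55.

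**Figure D2:**
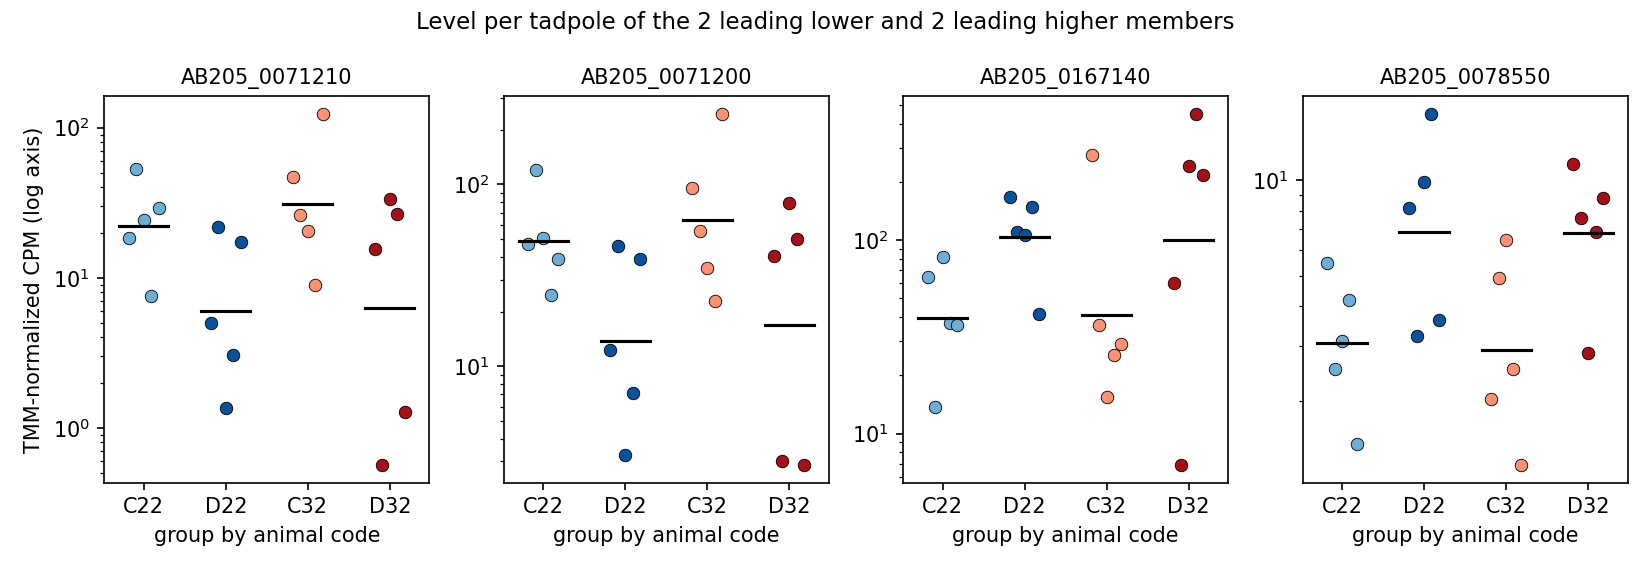
TMM-normalized CPM on a log axis (y) of the 2 leading lower and the 2 leading higher members in each of the 4 groups by animal code (x). Each point is 1 tadpole and each bar the geometric mean of 5. The groups overlap in all 4 panels, as with AB205_0167140, whose D32 tadpoles run from 6.88 to 449.98 CPM.

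The size of the difference and its standing against the spread were separate matters. The largest ratios of a difference to its standard error belonged to another pair with consecutive identifiers, ranked 4 and 9 among the higher members. The member ranked 4 had 23.7, 14.6, 25.7, 21.3 and 17.7 CPM in C22 and 40.6, 49.0, 57.8, 36.5 and 54.7 CPM in D22, with no overlap. At 32°C it had 17.5, 22.7, 29.8, 22.9 and 22.1 CPM in C32 and 156, 48.9, 27.5, 29.7 and 32.4 CPM in D32, where D3202 was several times above the rest and D3205 and D3206 lay just below C3207. Its differences of 1.22 and 1.01 were 3.33 and 2.77 standard errors, and those of the member ranked 9 were 3.41 and 2.86 standard errors. The steadiest member was the lower one ranked 16, with a standard deviation within groups of 0.379 on the log2 scale. It had 5.78 ± 2.08 CPM in C22, 3.49 ± 0.877 in D22, 5.33 ± 1.40 in C32 and 3.43 ± 0.753 in D32.

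At the other end were members whose level differed many times over between tadpoles of the same group. The higher member ranked 11 had the largest standard deviation within groups, 2.43 on the log2 scale. It had 34.8 CPM in C2207 and between 0.460 and 1.81 CPM in the other C22 tadpoles, and 41.7 and 9.22 CPM in D2206 and D2201 beside 0.491 to 1.70 CPM in the other D22 tadpoles. The lower member ranked 3 had between 8.38 and 26.8 CPM in 8 tadpoles (3 of C22, 3 of C32, D2206 and D3207) and between 0.393 and 1.13 CPM in the other 12. The group means of both members thus rested on how many tadpoles of each group were high. A small difference between temperatures could rest on single tadpoles too. In the lower member ranked 5 that difference was 0.43 in colonized and 0.32 in depleted tadpoles, with 13.6 CPM in C3210 and 1.01 CPM in D3206. The other C32 tadpoles had 64.8 to 206 CPM, beside at most 59.1 CPM in C22. The other D32 tadpoles had 61.2 to 103 CPM, beside at most 36.6 CPM in D22.

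Spread between like-treated tadpoles was larger in the members than in the genes at large. The standard deviation within groups on the log2 scale ran from 0.379 to 2.43 with a median of 0.853, whereas the median of all 6364 genes was 0.472. It was above that median in 38 of the 39 members, and above 0.635, the level that 25% of all genes exceeded, in 27. Genes of large spread pass a fixed lower limit on differences of group means more readily, so that part of the rule favours such a spread. They stay under the upper limit on the temperature differences less readily, so that part works against it. Nor was a large spread particular to the members: the median was 0.964 in all genes past 0.6 at both temperatures in the same direction. In those past 0.6 in opposite directions it was 0.899. A difference of 2 means of 5 tadpoles had a median standard error of 0.539 in the members and of 0.298 in all genes. The smaller of a member's 2 differences was less than 1 standard deviation in 22 members. Both differences exceeded 2 standard errors in 6 members, only 1 did in 11, and neither did in 22. Each member has 1 standard error, pooled over the 4 groups, which serves for both temperatures. It does not give the standing of a difference against the spread of its own 2 groups. In the lower member ranked 10 the groups did not overlap at 22°C, yet the difference there was 1.81 of these standard errors. Of all 6364 genes, 15.1% exceeded 2 standard errors at 22°C and 10.2% at 32°C, and since the members were chosen on these differences, nothing is read from their counts. The highest level among the 20 tadpoles was 3.71 to 219 times the lowest, and at least 10 times in 23 members (59.0%), as against 16.2% of all genes. This ratio spans all 4 groups and so includes the differences that the rule demanded, and nothing is read from these shares. The median standard deviation of the members was 0.828 in C22, 0.554 in D22, 0.787 in C32 and 1.03 in D32, beside 0.453, 0.429, 0.384 and 0.438 for all genes.

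**Figure D3:**
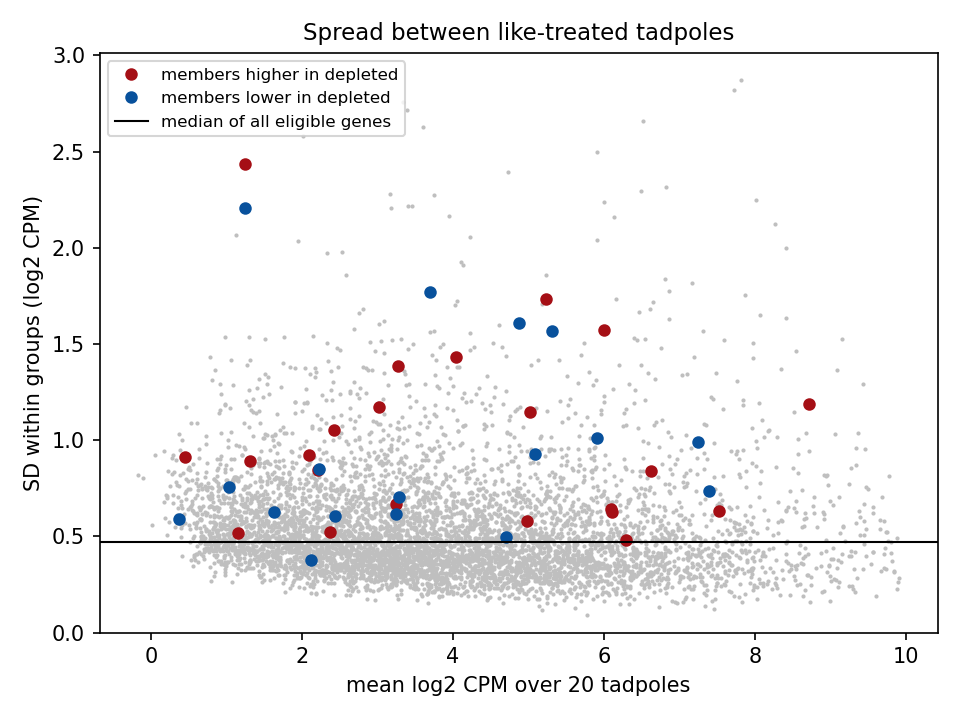
Standard deviation of log2 CPM within the 4 groups (y) against mean log2 CPM over 20 tadpoles (x) for the 6364 genes that could enter (grey), the 22 higher members (red) and the 17 lower members (blue). The line is the median of all genes, 0.472, and all but 1 member lie above it.

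No single tadpole matched its group in all members. For each member, a tadpole was placed on the depleted or on the colonized side of the midpoint between the mean log2 CPM of the 10 depleted and of the 10 colonized tadpoles. C22 tadpoles lay on the depleted side in 8 to 15 members (median 9) and C32 tadpoles in 6 to 17 (median 9). D22 tadpoles lay there in 25 to 32 members (median 30) and D32 tadpoles in 18 to 31 (median 26). The tadpoles nearest to the other treatment were C3208, with 17 members on the depleted side (11 of the 17 lower and 6 of the 22 higher ones), and D3205, with 18. D3203 lay on the depleted side in all but 4 of the lower members, yet in only 11 of the 22 higher ones. For the mean log2 CPM of the higher minus that of the lower members, the highest colonized tadpole had 0.23 and the lowest depleted one 0.49. The choice of the members favours such a gap, so nothing is read from it.

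**Figure D4:**
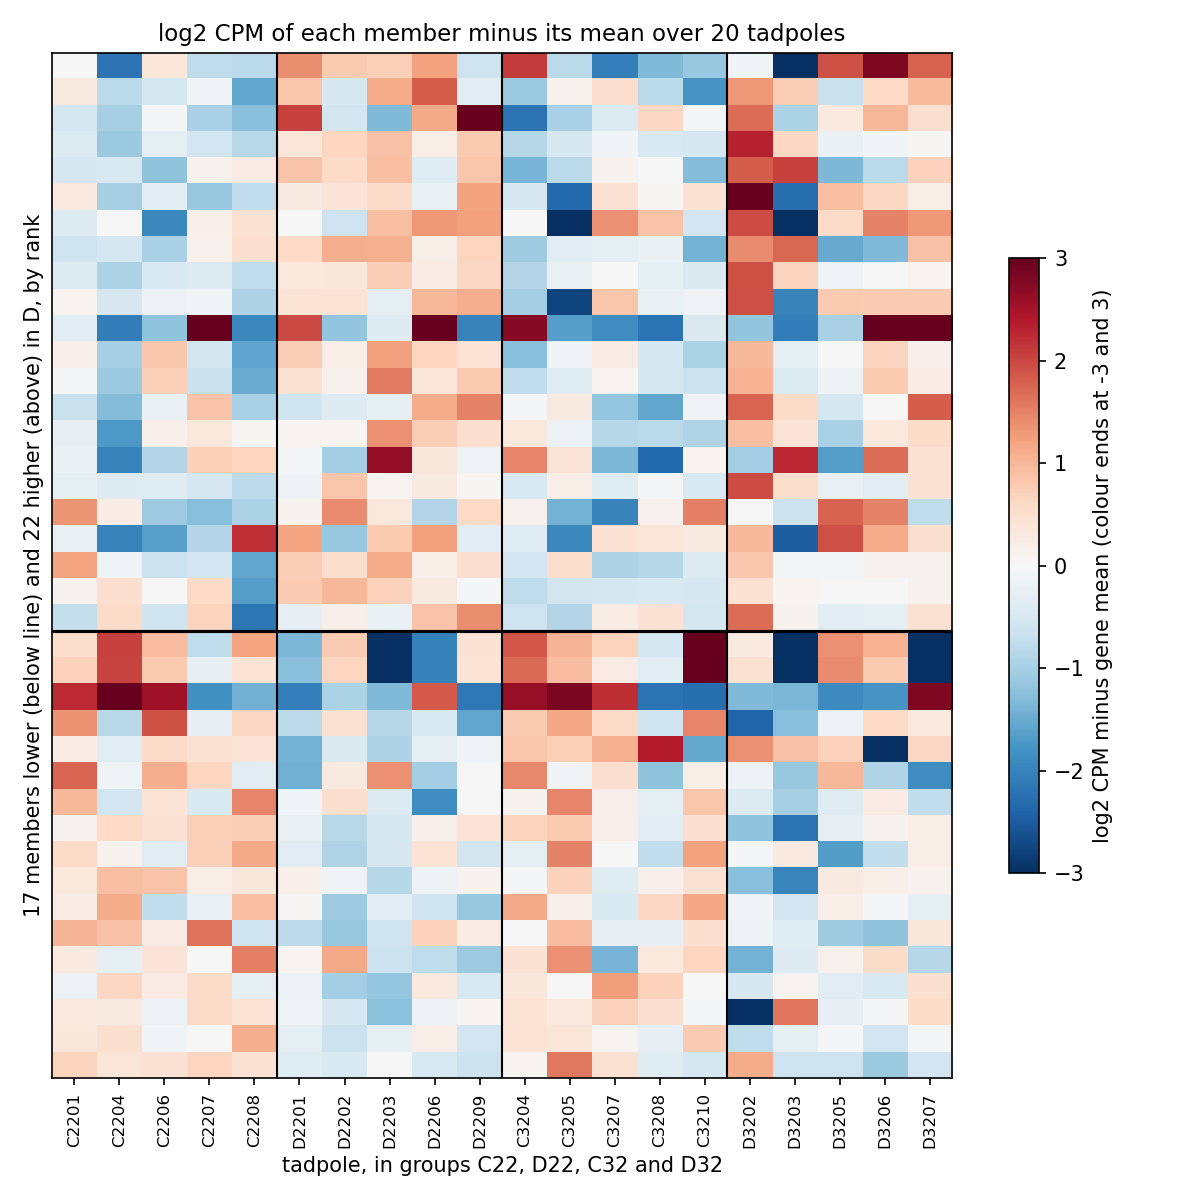
Log2 CPM of each of the 39 members (rows, 22 higher above the line and 17 lower below it, each by rank) minus its mean over the 20 tadpoles (columns, in groups C22, D22, C32 and D32). Red is above and blue below the gene's mean, with colours ending at −3 and 3. Within each group single tadpoles stand out, such as D3202, which has the highest level of all tadpoles in 7 members.

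**Figure D5:**
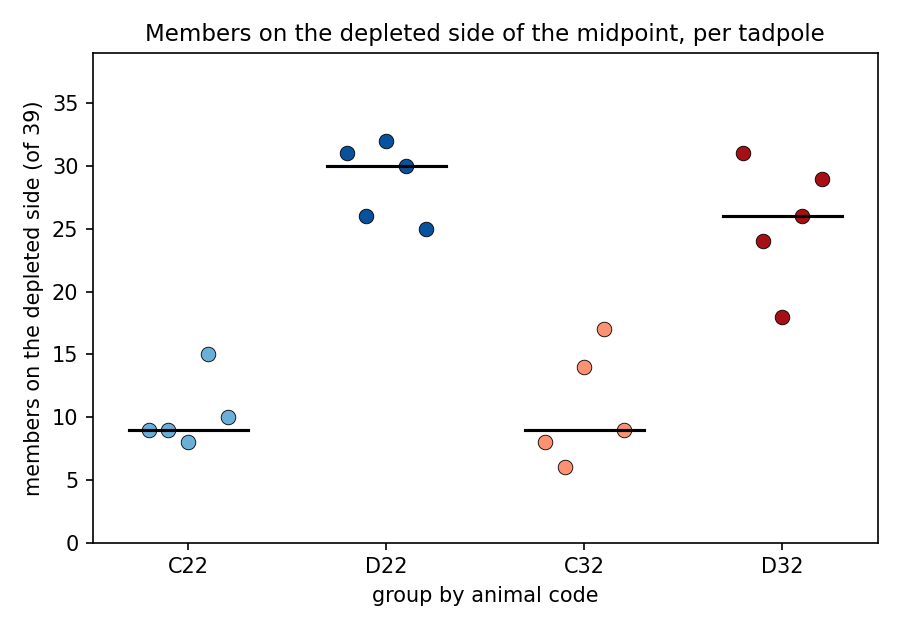
Number of the 39 members in which each tadpole lies on the depleted side of the midpoint (y), by group (x). Points are tadpoles and bars the group medians of 9 in C22, 30 in D22, 9 in C32 and 26 in D32.

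Tadpoles were also compared by pairs. Out of the 25 pairs of 1 depleted and 1 colonized tadpole at 22°C, between 15 and 25 ran in the member's direction (median 21), and at 32°C between 13 and 25 did (median 20). In 15 members at least 20 pairs did so at both temperatures. At 22°C the 5 depleted and 5 colonized tadpoles did not overlap in 5 members (12.8%), as in 2.87% of all 8477 genes. At 32°C they did not overlap in 1 member (2.56%), beside 1.42% of all genes. No member, and 0% of all genes, separated the 10 depleted from the 10 colonized tadpoles. Since the rule used these differences, nothing is read from the shares of members.

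The differences at 22°C and at 32°C come from different tadpoles, so how often a gene passed at both can be set beside how often it passed at each. Of the 6364 genes, 1064 (16.7%) differed by at least 0.6 at 22°C, 517 of them higher and 547 lower in depleted tadpoles. At 32°C 899 (14.1%) did, 369 higher and 530 lower. Both limits were passed in the same direction by 118 genes, and in opposite directions by 133. If passing at one temperature were unrelated to passing at the other, the products of these shares would give 75.5 genes in the same and 74.8 in opposite directions. The median standard deviation within groups was 0.964 in the 118 and 0.899 in the 133 genes, and both were larger than the 0.472 of all genes. The part of this spread in the counts was not tested. Over all 6364 genes, 41.7% had the same sign at both temperatures, and the differences were weakly and negatively related (Pearson r = −0.09 across genes, which are not independent replicates). Of the 1064 genes past 0.6 at 22°C, 462 (43.4%) had the same sign at 32°C.

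The limits on temperature removed 79 of the 118 genes and left the 39 members, which are 0.613% of the 6364 genes. The same limits were also set with temperature and colonization interchanged, which gave 677 genes (10.6%) that differed by temperature in both colonized and depleted tadpoles. Set on the interaction, so that C32 and D22 tadpoles differed together from C22 and D32 tadpoles, they gave 37 genes (0.581%). The interaction was added to the comparison with the other values already known. The colonization set was thus about as large as the interaction set and far smaller than the temperature set. Whether temperature and colonization interact in the 37 genes was not tested, so their number is not a count expected by chance. The median standard deviation within groups was 0.679 in the 37 genes and 0.495 in the 677, beside 0.853 in the members.

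Members rarely rose and fell together within groups. After the group mean was taken from each value, the correlation between members was calculated over the 20 tadpoles, which share the group means and the scaling of each library. Its median was 0.14 over the 231 pairs of higher members, 0.03 over the 136 pairs of lower members and −0.05 over the 374 pairs of a higher with a lower member. Over all pairs of the 6364 genes the median was 5.5e-04. The median size of the correlation over all 741 pairs was 0.236, the same as for pairs of the 6364 genes (0.236). A few pairs were closer, among them the higher members ranked 12 and 13 (0.93), whose identifiers are not consecutive. The higher member ranked 10 was also close to the higher members ranked 6 (0.86) and 7 (0.83). In 6 pairs the correlation was above 0.8, and the 3 closest were the only 3 pairs of members with consecutive identifiers: AB205_0071210 with AB205_0071200 (0.98), the higher members ranked 4 and 9 (0.98) and those ranked 5 and 8 (0.94). In each of the 3 pairs, both genes moved in the same direction. Over the 2097 pairs of consecutive identifiers among the 6364 genes the median was 0.14, and 10.4% were above 0.8, as against 0.240% of all pairs. Whether reads were shared between the genes of a pair was not tested, so these 6 members may hold fewer than 6 separate measurements.

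Across all genes, edgeR's quasi-likelihood test called no gene at a Benjamini–Hochberg adjusted p under 0.05, neither between the 10 depleted and the 10 colonized tadpoles, nor between D22 and C22, nor between D32 and C32 (0% of 8477 genes in each). The smallest adjusted p of any gene was 0.274, 0.0783 and 0.641 in the same order by this edgeR test. None of the 39 members was called. The log2 fold fitted in this test could differ from the difference of mean log2 CPM. In the lower member ranked 15 it was −0.03 at 32°C, beside −0.61. That member had a mean of 43.7 CPM in D32 and 44.4 CPM in C32, with 3.93 CPM in D3202. At 22°C the fitted fold was 0.20 beside 0.85 in the higher member ranked 19, and 2.31 beside 1.61 in the one ranked 3. At an unadjusted p under 0.05, 28 members (71.8%) passed over all 20 tadpoles, where 451 genes did (5.32%). At 22°C 19 members (48.7%) and 995 genes (11.7%) passed, and at 32°C 9 members (23.1%) and 623 genes (7.35%). The members were chosen on these differences, so these shares are no support for them. DESeq2 called 82, 350 and 139 genes and edgeR's likelihood ratio test 6, 127 and 8 genes in the same order, while limma voom called 0 in each.

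Membership depended on single tadpoles and on the scaling. When each tadpole was left out in turn, between 28 and 57 genes met the rule, and between 19 and 36 of the 39 were among them. The fewest, 19, were kept without D3202, and the largest sets arose without C3208, D3203 and C2201, with 57, 54 and 49 genes. Only 2 members, AB205_0078550 and the lower one ranked 4, met the rule in all 20 cases, 6 did in at least 19, and the higher one ranked 11 did in 9. Of the other genes given by identifier, AB205_0071210 met it in 10 cases, AB205_0071200 in 13 and AB205_0167140 in 17. With total counts in place of TMM factors, 67 genes met the rule, 8 higher and 59 lower, and 10 of the 39 were among them. All 39 kept their direction at both temperatures, and 19 of them kept a difference of at least 0.6 at both. With total counts, 21 of the 39 went past a limit on the temperature differences. That scaling moved the median of all 6364 genes by −0.43 in D22 minus C22 and by 0.54 in D32 minus D22, and by less than 0.1 in the other differences. With group medians in place of means, 48 genes met the rule and 14 of the 39 were among them. Of the 39, 38 then kept their direction at both temperatures, and 22 kept a difference of at least 0.6 at both.

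Near the limits of the rule, the smaller difference was 0.602 in the last member inside and 0.597 in the first gene outside, with 9 members between 0.60 and 0.65 and 7 further genes between 0.55 and 0.60. The largest difference by temperature was 0.479 in a member and 0.517 in the nearest gene left out. The upper limit on the mean removed no gene that met the rest of the rule, while the demand for counts in every library kept out 61 genes. The lowest count of a member in a library was 6, and 6 members had a count under 10 in some library.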

How the data were processed

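Gut RNA of 20 tadpoles was sequenced as 1 library each. According to the methods of the study, adapters were trimmed (Trim Galore), reads were aligned by BWA against the draft genome of the American bullfrog, StringTie gave the read numbers and transcripts of low abundance were removed. The authors deposited raw counts, whole numbers by gene without scaling, and all 20 columns were used. Versions of those tools are not given in the sources used here.

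Counts were scaled by TMM in edgeR 4.0.16 (R 4.3.3), with log2 CPM at a prior count of 2. The members and lists were chosen with earlier results of these data known. Calls over all 8477 genes used edgeR's quasi-likelihood test, with an adjusted p under 0.05. Alternatives used DESeq2 1.42.0, limma 3.58.1, other scalings, prior counts, filters and limits, the treatment fields, the animal number as a block, and each tadpole left out. Genes given by identifier are the first 2 in each direction by the smaller difference, and others are given by rank. Lists of named genes and cell type markers were not used, since identifiers are not paired with names. Standard errors pool the spread within the 4 groups (5 tadpoles each). Scripts were checked on simulated counts. Totals per library ran from 11102195 to 22922461 counts.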

Additional observations from a re-analysis of the deposited data

Results flagged for a closer look

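In 20 sets of 5 values (the 4 genes given by identifier and the mean of higher minus lower members, each in 4 groups), 2 held a tadpole that stood apart from the other 4. Chance alone gives about 1 in 20 for normally distributed values, which CPM need not be. AB205_0071200 had 121 CPM in C2204, with a gap to the next C22 tadpole of 0.727 of the group's range. AB205_0167140 had 275 CPM in C3204, with a gap of 0.919 of the range of C32. The limit for 5 values is 0.71. On the log2 CPM scale the gaps were 0.545 and 0.703 of the range, both under the limit.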

How the results depend on the processing

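Of the alternatives for the 39 members, RLE size factors (38 genes), a prior count of 0.5 (39) or 5 (35), no upper limit on the mean (39), group medians (48) and the same limits on the interaction (37) stayed within 1.5 times the count. The counts do not speak for the same genes: 14 of the 39 were among those by group medians and, the contrast being another one, 0 among those by the interaction. It moved to 67 genes with total counts, 100 with zero counts allowed, 59 with a difference of at least 0.5 and 17 with at least 0.8, 18 with temperature differences under 0.3 and 118 without that limit. With groups by the treatment fields it was 677, which by the animal codes is the set with temperature and colonization interchanged. Without 1 tadpole it ran from 28 to 57.

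Between depleted and colonized tadpoles the count of called genes moved from 0 to 82 with DESeq2, 6 with the likelihood ratio test and 1889 with the treatment fields. By the animal codes, the comparison with the treatment fields is the one of warm with cool tadpoles. For D22 against C22 it moved to 350, 127 and, in one fit of all 4 groups, 5, and for D32 against C32 to 139 and 8 with the first 2 tools. Without 1 tadpole these counts ran from 0 to 1 (1 without C2206), from 0 to 5 (5 without C2206, 3 without D2206, 2 without C2204, C2208, D2201 or D2209 and 1 without D2202) and from 0 to 1 (1 without C3204, C3205, C3208 or C3210). Causes were not tested. Other scalings, filters and limma voom left all 3 counts at 0.

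With the animal number as a replicate block, the count over all 20 tadpoles was 0. In one fit of all 4 groups, the block gave 1 gene for D22 against C22, where the same fit without it gave 5, and 0 for D32 against C32, where it gave 0 as well. The numbers name animals and do not pair them: over 12 pairs of same-numbered tadpoles of different groups, deviations from group means correlated between −0.36 and 0.14 (median −0.03). Over 138 pairs with different numbers the correlations ran from −0.42 to 0.46 (median 0.01).

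With 1 tadpole left out, the differences of the 4 genes given by identifier kept their sign, from −2.79 to −1.25 in the lower and from 0.74 to 2.24 in the higher ones. The median standard deviation of the members ran from 0.809 to 0.883 and their median correlation, with lower members reversed in sign, from 0.04 to 0.09.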
